A study of Mus musculus and Acomys cahirinus with 16 samples.

Results

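The genes described here encode the Wnt ligands, their receptors, the secreted proteins that strengthen or block them, and a few partners inside the cell. They are found by symbol: every gene named Wnt, Fzd, Dkk, Sfrp or Rspo followed by a digit, together with Wif1, Frzb, Lrp5, Lrp6, Axin2, Lef1, Tcf7, Notum, Nkd1, Nkd2, Porcn and Wls. This rule found 55 of 56980 genes in the mouse table and 53 of 19818 in the spiny mouse table, and 53 symbols were in both. The other 2, Fzd10os and Rspo4os, are RNAs annotated on the strand opposite to Fzd10 and Rspo4 in the mouse table.

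Polyadenylated RNA was sequenced from skin of 2 species, the house mouse (Mus musculus) and a spiny mouse (Acomys cahirinus), a rodent known for scar-free repair of its skin. Each species gave 4 untreated samples and 4 treated with DMBA/TPA, the classic chemical protocol in which a mutagen (DMBA) is followed by a phorbol ester (TPA) that drives the skin to proliferate. The study's title concerns resistance of spiny mice to squamous carcinogenesis under this protocol, whereas its design text speaks of irradiated fibroblasts, and the sample labels were followed. Strain, age, sex, dose, duration, body site and the state of the hair are not given in the sources used here, nor whether treated skin was tumour or surrounding tissue. Nothing in the labels says that the replicates are separate animals, so the p-values measure only the spread between these samples, which may be technical.

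Total counts ran from 19608787 to 30198281 per mouse sample and from 21143918 to 30561256 per spiny mouse sample. Levels are given as CPM, counts scaled to the library total, with totals adjusted by TMM factors. By the total counts without that adjustment, 3 counts correspond to 0.0982 to 0.153 CPM. Keratinocyte markers were abundant in all 16 samples, and their sum rose with treatment. The 8 genes of the basal list summed to 7496 to 10473 CPM untreated and 14634 to 19372 CPM treated in mouse. In spiny mouse they summed to 8381 to 10045 and 17471 to 21818 CPM. Of the 8 genes 2 were higher and 3 lower in mouse, and 5 higher and 1 lower in spiny mouse. Marker lists of other tissues moved too. The 14 skeletal muscle genes summed to 28508 to 76709 CPM in untreated and 4960 to 6689 CPM in treated mouse skin, and to 25737 to 33964 and 9333 to 18504 CPM in spiny mouse, and all 13 tested were lower in each species. Of 10 adipocyte genes, 6 were lower in each species. All 6 melanocyte genes were higher in treated mouse skin, and 1 of 5 tested was lower in spiny mouse. No gene of these 4 lists was at 0 in every sample of a group, and their part in the results on Wnt genes was not tested. In bulk skin, fewer cells of a type and less RNA per cell cannot be told apart.

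Wnt ligands are lipid-modified secreted proteins that bind a Frizzled receptor together with Lrp5 or Lrp6, and in the canonical branch this stabilises beta-catenin, which acts in the nucleus with Lef1 and Tcf factors. R-spondins raise the amount of receptor at the cell surface, while secreted Frizzled-related proteins, Wif1 and Notum hold the ligands back and Dickkopf proteins block the co-receptors. In skin the pathway starts hair growth: it is active in the matrix and precortex of the growing (anagen) follicle and low in the resting (telogen) follicle.

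Within each species, treated skin was compared with untreated skin for every gene that passed the filter on low counts, and a gene was called where the adjusted p was under 0.05. In mouse 48 of the 55 genes were tested and 33 were called, or 68.75%, beside 61.2% of all 19740 genes tested. Of these, 22 were higher (25.9% of all genes tested were called higher) and 11 lower (35.3% of all genes). The median log2 fold change was 0.39 for the Wnt genes and -0.15 for all genes. In spiny mouse 49 of 53 genes were tested and 39 were called, or 79.59%, beside 55.1% of 14833 genes. Here 6 were higher (28.2% of all genes) and 33 lower (26.9% of all genes), with a median of -0.79 against -0.010 for all genes. Most Wnt genes called in spiny mouse were therefore lower after treatment under all 4 scalings tried, with 33 or 34 lower. In mouse more were higher than lower with TMM factors and with DESeq2 size factors (25 against 10), but not with upper-quartile factors or library size alone, which each gave 15 higher and 16 lower.

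The 2 groups were fully apart for 30 of 48 genes in mouse, where 58.6% of all genes tested were, and for 30 of 49 in spiny mouse, where the share over all genes was 50.9%. The species by treatment interaction, given below as the spiny mouse log2 fold change minus that of mouse, was called for 30 of 47 genes tested, beside 46.1% of 13656 shared genes. It was negative for 27 (24.7% of all genes were called in that direction) and positive for 3, Rspo1, Wnt3a and Wnt7a (21.4% of all genes). The shares of all genes given here and in the paragraph above are also the background for counts of single roles and lists elsewhere. Among 25 Wnt genes called in both species, 11 moved in opposite directions (44%), and among all 4906 shared genes called in both, 1126 did (22.95%). This count was repeated under other settings chosen after seeing the data. It was 7 of 24 Wnt genes (29.17%) with upper-quartile factors and again with library size alone, beside 23.61% and 24.28% of all genes, and 14 of 30 (46.67%) without mouse untreated replicate 2, beside 26.07%. The 11, raised in mouse and reduced in spiny mouse, were Fzd1, Fzd2, Fzd8, Fzd10, Lrp5, Lrp6, Lef1, Nkd1, Nkd2, Notum and Wnt11. Another 11 fell in both species, and 3 rose in both (Rspo4, Sfrp1 and Wnt4).

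The direction of the mouse calls depended in part on how libraries were scaled. With upper-quartile factors the median log2 fold change of all genes moved by -0.205, and with library size alone by -0.238. No called Wnt gene changed sign under either scaling, but Dkk3, Fzd3, Fzd8, Lef1, Lrp5, Lrp6 and Notum lost their mouse call under both. Of all mouse calls, TMM factors put 42.4% on the higher side. That share was 48.4% by DESeq2 size factors, 30.5% by upper quartiles and 28.6% by library size alone. For the interaction the positive share of calls was 46.4%, 36.9%, 61.2% and 66.2% in the same order.

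**Figure D1:**
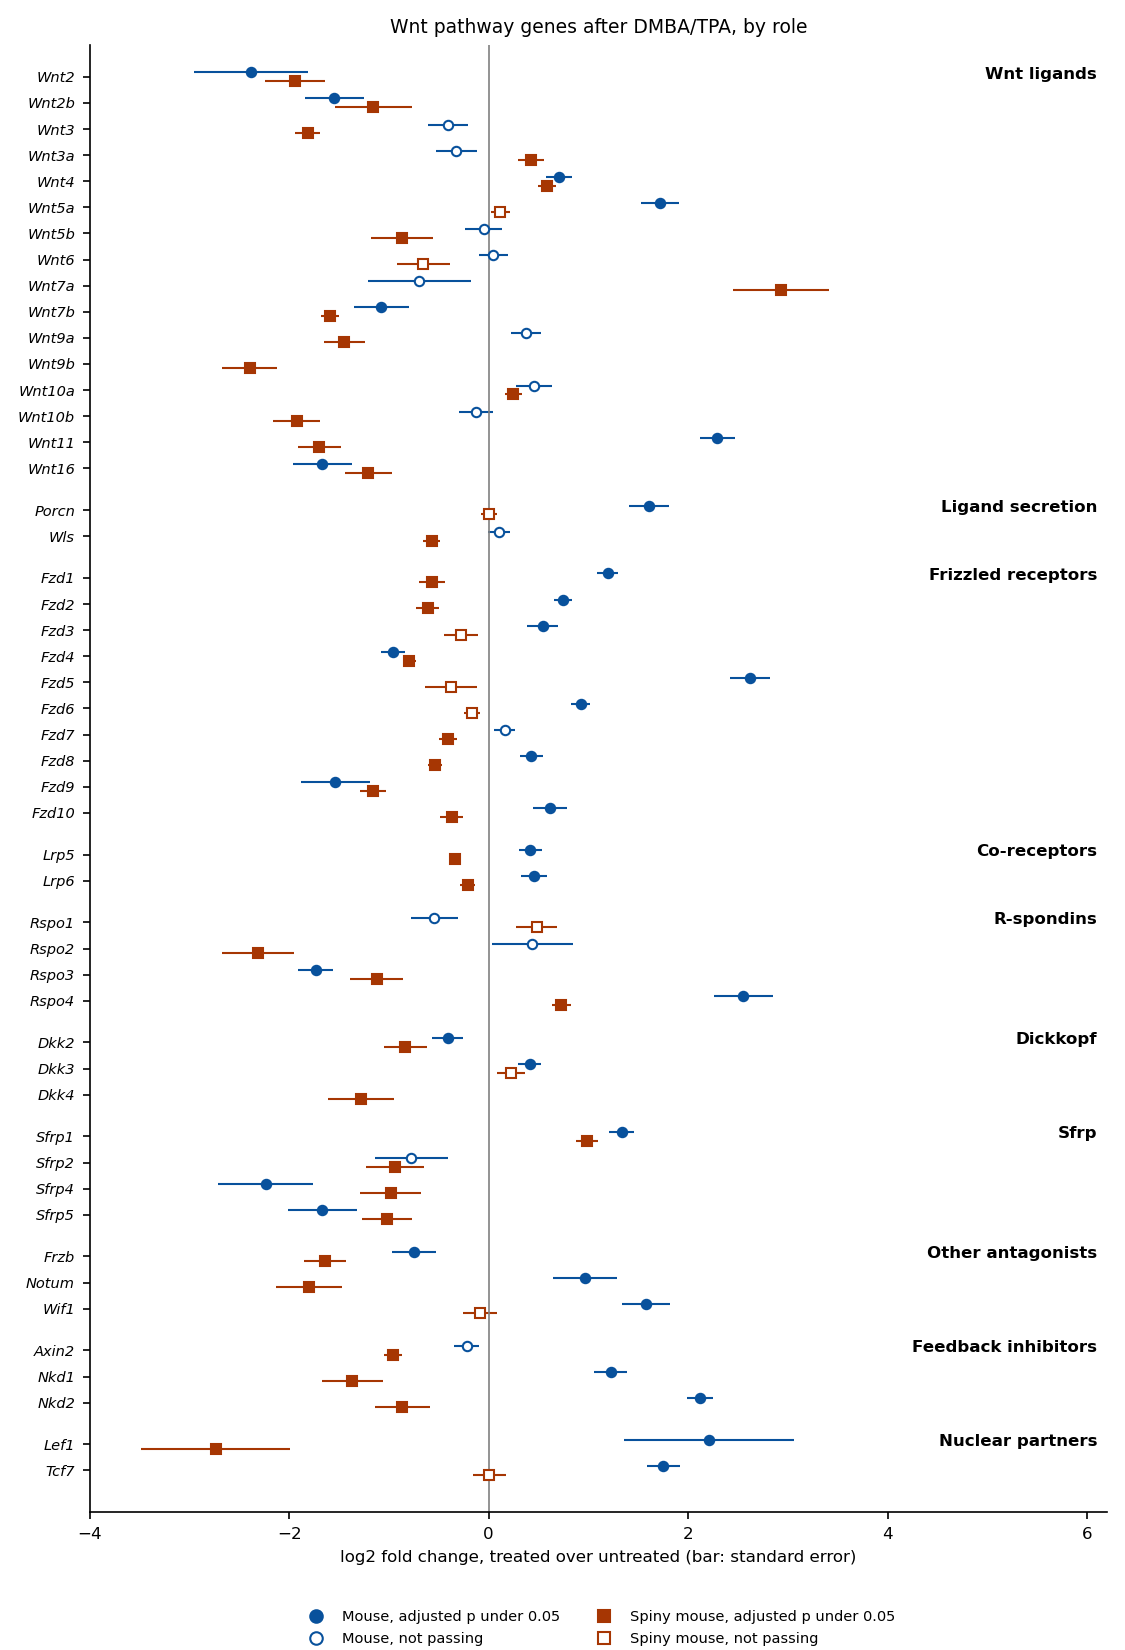
Log2 fold change of treated over untreated skin (x axis) for each Wnt gene tested, grouped by role, with circles for mouse and squares for spiny mouse. Bars are standard errors and filled symbols passed an adjusted p under 0.05. With these TMM factors Frizzled receptors lie mostly to the right of 0 in mouse and to the left in spiny mouse, and Sfrp1 and Wnt4 lie to the right in both.

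Because Wnt activity follows the hair cycle, a hair shaft score was made from genes that are not among the Wnt genes: the mean log2 CPM of hair cortex and cuticle keratins with Hoxc13, S100a3 and Padi3 (15 genes in mouse, 13 in spiny mouse). In mouse the score was -1.09, 6.25, -0.45 and -1.34 in untreated replicates 1 to 4, and 8.89, 8.74, 8.75 and 8.73 in treated replicates 1 to 4. Untreated replicate 2 thus stood apart from the other 3 untreated samples, and the 4 treated samples were all high. In spiny mouse the score was 8.99, 9.02, 5.11 and 6.79 untreated and 3.25, 2.28, 6.97 and 5.74 treated, so the groups overlapped and untreated samples were on the whole higher. Genes of the hair matrix, the dividing base of the growing follicle, were called higher for 7 of 8 in mouse and lower for 7 of 8 in spiny mouse. Of the hair shaft genes themselves, 7 of 15 were higher in mouse and 5 of 13 lower in spiny mouse, and of inner root sheath genes 9 of 9 were higher in mouse and 0 of 8 called in spiny mouse, where their median log2 fold change was -2.36. Other parts of the follicle were mixed in mouse. Of 11 dermal papilla genes 2 were higher and 3 lower there, and of 9 bulge genes 4 and 5. In spiny mouse 1 of the 11 was higher and 5 lower, and 1 of the 9 was higher and 7 lower. Genes of the hair shaft, inner root sheath and hair matrix moved with treatment in mouse, where hair growth and treatment cannot be told apart. In spiny mouse the hair matrix genes and part of the hair shaft genes moved the opposite way. Proliferation genes rose in both species, for 12 of 12 tested in mouse and 11 of 11 in spiny mouse.

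Wnt ligands were the largest group, with 19 genes in each table. In mouse 15 were tested, of which 3 rose and 4 fell (46.67% called, beside 61.2% of all genes). In spiny mouse 16 were tested, of which 4 rose and 10 fell (87.5%, beside 55.1%). The interaction was called for 7 of 15 ligands (46.67%), near the share of all genes (46.1%). By level per length (TPM, mean of all 8 samples), the most abundant in mouse were Wnt10a (52.7), Wnt4 (49.1), Wnt3 (33.1) and Wnt7b (28.0), and in spiny mouse Wnt4 (72.1), Wnt3 (65.1), Wnt10a (42.6) and Wnt7b (39.0). The same 4 ligands thus led in each species. Values per sample are given below in the order of replicates 1 to 4, and changes are log2 fold changes of treated over untreated skin.

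Wnt11, a ligand best known for beta-catenin-independent signalling, separated the species most among the ligands. In mouse it stood at 10.02, 14.8, 9.56 and 9.84 CPM untreated and 48.6, 49.1, 51.4 and 67.5 CPM treated, and every treated sample was above every untreated one. In spiny mouse it stood at 19.8, 21.9, 13.6 and 15.4 CPM untreated and 5.37, 3.90, 7.36 and 5.12 CPM treated, and every treated sample was below every untreated one. The log2 fold change was 2.29 (SE 0.18, edgeR adjusted p 1.64e-05) in mouse and -1.70 (SE 0.22, edgeR adjusted p 0.000213) in spiny mouse. The difference between the species was -3.99 (SE 0.29, edgeR adjusted p 1.4e-07).

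Wnt5a, another ligand of the beta-catenin-independent branch, was at 23.4, 38.4, 20.7 and 31.8 CPM untreated and 97.8, 103, 85.98 and 88.1 CPM treated in mouse, with no overlap between the groups. Spiny mouse skin held 71.0, 85.3, 61.95 and 65.5 CPM untreated and 74.4, 77.4, 75.8 and 79.96 CPM treated, and the groups overlapped. Its log2 fold change was 1.72 (SE 0.19, edgeR adjusted p 9.39e-05) in mouse and 0.12 (SE 0.095, edgeR adjusted p 0.325) in spiny mouse, and the species differed by -1.60 (SE 0.22, edgeR adjusted p 3.9e-05).

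Wnt4, expressed by epidermal keratinocytes, moved alike in both species. Mouse skin had 60.5, 44.6, 53.9 and 62.3 CPM untreated and 98.7, 86.2, 97.3 and 78.5 CPM treated. Spiny mouse skin had 70.1, 69.5, 87.95 and 80.03 CPM untreated and 125, 122, 104 and 111 CPM treated. All treated samples of a species lay above all its untreated ones. Wnt4 rose by a log2 change of 0.71 (SE 0.13, edgeR adjusted p 0.00149) in mouse and 0.59 (SE 0.094, edgeR adjusted p 0.00077) in spiny mouse, and the difference between them was -0.12 (SE 0.16, edgeR adjusted p 0.578).

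Wnt3 and Wnt7b, canonical ligands of the epidermis and follicle, were among the most abundant ligands of untreated spiny mouse skin. Wnt3 measured 126, 123, 133 and 122 CPM untreated and 40.1, 42.4, 32.3 and 28.3 CPM treated in spiny mouse, with the groups far apart. Mouse samples measured 48.7, 25.96, 36.2 and 46.5 CPM untreated and 36.6, 26.99, 28.5 and 26.4 CPM treated for the same gene and overlapped. The log2 fold change of Wnt3 was -1.81 (SE 0.12, edgeR adjusted p 1.19e-05) in spiny mouse and -0.41 (SE 0.20, edgeR adjusted p 0.1) in mouse, and the difference was -1.40 (SE 0.25, edgeR adjusted p 0.000304). For Wnt7b, spiny mouse samples measured 92.7, 102, 109 and 107 CPM untreated and 36.4, 35.8, 35.5 and 28.4 CPM treated. In mouse they measured 68.1, 29.3, 68.1 and 83.1 CPM untreated and 33.9, 28.7, 31.8 and 23.7 CPM treated, and untreated replicate 2 lay inside the treated range. Wnt7b fell, with log2 fold changes of -1.59 (SE 0.093, edgeR adjusted p 8.32e-06) and -1.08 (SE 0.28, edgeR adjusted p 0.00832) in the same order, and the difference of -0.52 (SE 0.31, edgeR adjusted p 0.188) was not called. Exons of Wnt3 and Wnt9b share 174 bases on opposite strands in the spiny mouse annotation, or 5.44% of Wnt3, and the counting used no strand.

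Wnt10a and Wnt10b act early in hair follicle growth. Wnt10a stood at 41.2, 25.5, 38.1 and 49.3 CPM untreated and 56.5, 45.98, 54.1 and 54.3 CPM treated in mouse. In spiny mouse the values were 28.8, 34.2, 29.9 and 27.6 CPM untreated and 37.4, 37.5, 36.2 and 31.9 CPM treated, and in each species the groups overlapped. It rose in spiny mouse by 0.25 (SE 0.089, edgeR adjusted p 0.0379), a call that was lost without untreated replicate 1, 3 or 4 or treated replicate 1, 2 or 3, and under upper-quartile factors, and had a value of 0.45 (SE 0.18, edgeR adjusted p 0.0515) in mouse. Wnt10b had 7.55, 11.8, 6.30 and 7.95 CPM untreated and 1.59, 2.11, 2.75 and 2.38 CPM treated in spiny mouse and did not overlap there. Its mouse samples had 16.4, 13.8, 11.4 and 18.7 CPM untreated and 12.1, 14.7, 12.7 and 15.9 CPM treated and did. Wnt10b fell, with a log2 change of -1.92 (SE 0.23, edgeR adjusted p 0.000172) in spiny mouse, against -0.12 (SE 0.17, edgeR adjusted p 0.544) in mouse, with the species apart by -1.80 (SE 0.29, edgeR adjusted p 0.00017). In the spiny mouse annotation 36.4% of the exon bases of Wnt10b overlap a same-strand gene, LOC115488470, and fragments assigned to both were not counted.

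Wnt16 and Wnt2 fell in both species. Wnt16, made in the skin by keratinocytes, was at 9.24, 5.0, 5.50 and 10.2 CPM untreated and 2.36, 2.73, 1.56 and 2.78 CPM treated in mouse. The spiny mouse values were 21.8, 14.9, 33.9 and 17.7 CPM untreated and 9.55, 10.7, 8.67 and 9.46 CPM treated. Neither species had overlapping groups, and the log2 fold changes were -1.67 (SE 0.29, edgeR adjusted p 0.00122) and -1.21 (SE 0.23, edgeR adjusted p 0.00203). Wnt2, a canonical ligand, was at 12.4, 2.15, 8.98 and 3.10 CPM untreated and 1.21, 0.659, 1.46 and 1.75 CPM treated in mouse, with the untreated samples widely spread. In spiny mouse it was at 6.87, 9.995, 4.80 and 5.30 CPM untreated and 1.27, 1.29, 2.09 and 2.38 CPM treated. Its log2 fold changes were -2.38 (SE 0.57, edgeR adjusted p 0.00568) and -1.94 (SE 0.30, edgeR adjusted p 0.000589), and neither species difference was called, at 0.46 (SE 0.39, edgeR adjusted p 0.347) and 0.44 (SE 0.68, edgeR adjusted p 0.622).

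Wnt2b and Wnt9a were scarcer. Wnt2b measured 3.62, 7.19, 3.19 and 4.28 CPM untreated and 1.63, 1.23, 1.89 and 1.49 CPM treated in mouse. Spiny mouse samples held 1.09, 1.27, 0.715 and 1.33 CPM untreated and 0.409, 0.643, 0.183 and 0.731 CPM treated and overlapped. It fell, with a log2 change of -1.55 (SE 0.29, edgeR adjusted p 0.00181) in mouse and -1.16 (SE 0.39, edgeR adjusted p 0.029) in spiny mouse. The spiny mouse call was lost without untreated replicate 1, 2 or 4 or treated replicate 1. Wnt9a, a canonical ligand next to Wnt3a on the chromosome in both species, measured 12.9, 19.2, 10.6 and 12.8 CPM untreated and 3.78, 6.003, 5.09 and 5.48 CPM treated in spiny mouse, where the groups were apart. In mouse it measured 6.80, 8.46, 9.60 and 8.52 CPM untreated and 9.24, 11.03, 10.7 and 12.3 CPM treated with some overlap. The log2 fold changes of Wnt9a were -1.45 (SE 0.21, edgeR adjusted p 0.000389) in spiny mouse and 0.37 (SE 0.15, edgeR adjusted p 0.0505) in mouse, and the difference was -1.82 (SE 0.26, edgeR adjusted p 4.92e-05).

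Wnt7a and Wnt9b were near the limit of counting. Wnt7a, a canonical ligand of epithelia, was at 0.204, 0.119, 0.443 and 0.0914 CPM untreated and 1.96, 1.32, 1.03 and 2.70 CPM treated in spiny mouse, and all treated samples were above all untreated ones. In mouse it was at 0.855, 0.702, 0.513 and 1.14 CPM untreated and 0.158, 0.396, 0.327 and 1.04 CPM treated with overlap. It rose by 2.93 (SE 0.48, edgeR adjusted p 0.00084) in spiny mouse, where untreated samples held 2 to 13 counts, and had a value of -0.69 (SE 0.52, edgeR adjusted p 0.266) in mouse. The difference of 3.60 (SE 0.73, edgeR adjusted p 0.000961) was the largest positive difference among the Wnt genes tested. Wnt9b, best known from kidney development, was at 2.01, 1.43, 2.14 and 2.42 CPM untreated and 0.546, 0.250, 0.403 and 0.320 CPM treated in spiny mouse and fell, with a log2 change of -2.40 (SE 0.28, edgeR adjusted p 0.000139) there. Its mouse levels of 0.326, 0.307, 0.476 and 0.729 CPM untreated and 0.315, 0.0879, 0.255 and 0.446 CPM treated did not pass the filter.

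Of the remaining ligands, Wnt3a, Wnt5b and Wnt6 ranged from 9.87 to 20.8 CPM, 5.25 to 8.54 CPM and 5.94 to 7.69 CPM over all mouse samples, and none was called there. Wnt3a rose in spiny mouse by 0.43 (SE 0.13, edgeR adjusted p 0.0193) and differed between the species by 0.75 (SE 0.25, edgeR adjusted p 0.0235). Wnt5b fell in spiny mouse, with a log2 change of -0.87 (SE 0.31, edgeR adjusted p 0.038), while Wnt6 had -0.65 (SE 0.27, edgeR adjusted p 0.0612). In spiny mouse the call of Wnt3a was lost without treated replicate 1 or 2, and that of Wnt5b without untreated replicate 1 or 2 or treated replicate 1, 2 or 4. The difference in Wnt3a was lost without mouse untreated replicate 4 or mouse treated replicate 1, 2 or 4. Wnt1, Wnt8a and Wnt8b passed the filter in neither species and were at most 0.746 CPM in any sample.

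**Figure D2:**
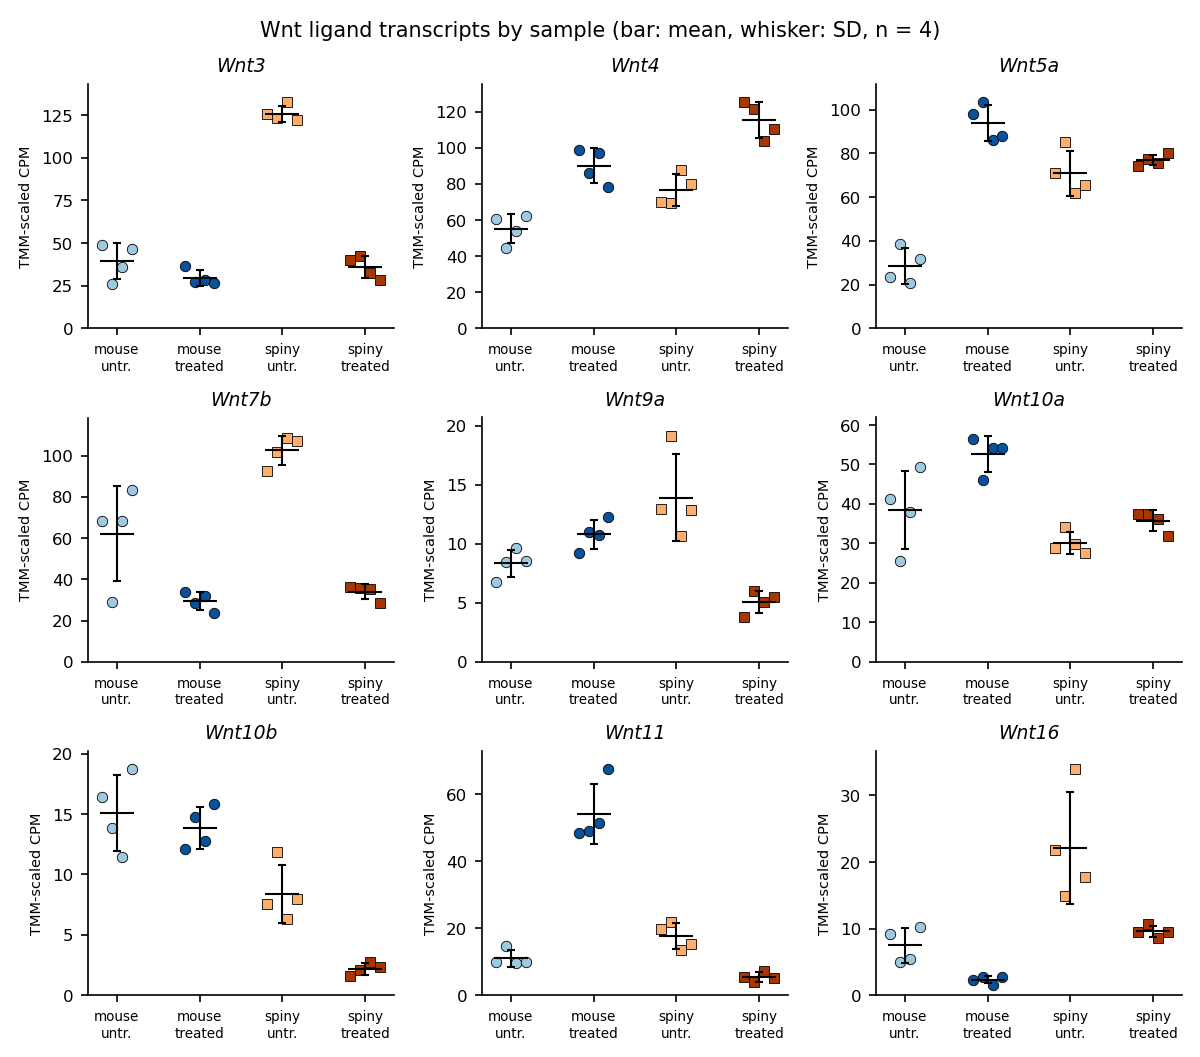
TMM-scaled CPM (y axis, from 0) of 9 Wnt ligands in each of the 16 samples, by species and treatment; short horizontal lines are means and whiskers SD of 4 samples. Levels are comparable within a species and not between species, since gene models differ. Wnt3 is low in all 4 treated spiny mouse samples (28.3 to 42.4 CPM), and Wnt11 moves up in mouse and down in spiny mouse.

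Wnt ligands leave the cell only after a lipid is attached by Porcn and after transport by the carrier Wls. Porcn was at 6.92, 12.1, 8.35 and 7.70 CPM untreated and 22.5, 24.97, 24.9 and 34.5 CPM treated in mouse, with no overlap. Its levels in spiny mouse were 32.4, 32.3, 28.97 and 27.4 CPM untreated and 32.1, 29.9, 28.8 and 30.6 CPM treated, with overlap. The log2 fold change was 1.61 (SE 0.20, edgeR adjusted p 0.000189) in mouse and 0.003 (SE 0.078, edgeR adjusted p 0.973) in spiny mouse, and the difference was -1.61 (SE 0.22, edgeR adjusted p 3.52e-05). Wls was called in the other species: mouse samples were at 182, 144, 186 and 174 CPM untreated and 183, 196, 176 and 183 CPM treated and overlapped. Spiny mouse samples were at 133, 129, 162 and 146 CPM untreated and 101, 101, 90.8 and 90.4 CPM treated and did not. Wls fell in spiny mouse, with a log2 change of -0.57 (SE 0.084, edgeR adjusted p 0.000469), against 0.10 (SE 0.11, edgeR adjusted p 0.444) in mouse, with the species apart by -0.68 (SE 0.14, edgeR adjusted p 0.000819).

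All 10 Frizzled receptors were tested in both species. In mouse 7 rose (Fzd1, Fzd2, Fzd3, Fzd5, Fzd6, Fzd8 and Fzd10) and 2 fell (Fzd4 and Fzd9). In spiny mouse none rose and 7 fell (Fzd1, Fzd2, Fzd4, Fzd7, Fzd8, Fzd9 and Fzd10). These calls made up 90% of the 10 in mouse and 70% in spiny mouse, beside 61.2% and 55.1% of all genes. The median log2 fold change was 0.58 in mouse and -0.47 in spiny mouse. With TMM factors 8 of the 10 differed between the species, all in the negative direction, beside 46.1% of all genes in either direction. The difference in Fzd3 was lost under upper-quartile factors and library size alone, and that in Fzd7 under library size alone. Fzd1 was the most abundant per length in mouse (134 TPM over all samples) and Fzd7 in spiny mouse (62.4 TPM).

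Fzd5 had the largest mouse rise of the receptors. Mouse samples were at 16.98, 29.8, 15.1 and 18.8 CPM untreated and 118, 129, 122 and 128 CPM treated, with no overlap and with untreated replicate 2 the highest of its group. Spiny mouse samples were at 78.4, 74.2, 34.5 and 44.1 CPM untreated and 38.9, 36.8, 57.7 and 44.9 CPM treated, where untreated replicates 1 and 2 were high and the rest overlapped. Fzd5 rose by 2.62 (SE 0.20, edgeR adjusted p 1.65e-05) in mouse and had -0.37 (SE 0.26, edgeR adjusted p 0.251) in spiny mouse, and the difference was -3.00 (SE 0.36, edgeR adjusted p 1.1e-05). In the mouse annotation 17.8% of its exon bases lie opposite the gene Gm38058. The counting used no strand, and fragments assigned to both genes were not counted.

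Fzd1 and Fzd2, receptors for canonical ligands, moved in opposite directions in the 2 species. Fzd1 measured 124, 126, 122 and 120.0 CPM untreated and 254, 281, 276 and 311 CPM treated in mouse. Its spiny mouse values were 103, 117, 83.5 and 96.9 CPM untreated and 57.6, 58.8, 76.3 and 77.7 CPM treated. Neither species overlapped, and the log2 fold changes were 1.19 (SE 0.11, edgeR adjusted p 3.09e-05) and -0.57 (SE 0.13, edgeR adjusted p 0.00562), with the species apart by -1.76 (SE 0.17, edgeR adjusted p 1.48e-06). Fzd2 measured 39.8, 41.9, 35.8 and 44.4 CPM untreated and 65.4, 65.3, 69.4 and 71.8 CPM treated in mouse. Its spiny mouse values were 46.2, 47.6, 42.9 and 35.97 CPM untreated and 25.9, 24.9, 30.2 and 32.1 CPM treated. Its groups did not overlap either, with log2 fold changes of 0.75 (SE 0.093, edgeR adjusted p 0.000174) and -0.61 (SE 0.12, edgeR adjusted p 0.00179) and a species difference of -1.36 (SE 0.15, edgeR adjusted p 5.07e-06).

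Fzd6, which acts in planar cell polarity and sets the orientation of hairs, rose in mouse from 80.4 ± 6.15 CPM untreated to 152 ± 8.69 CPM treated (mean ± SD, n = 4 each). Its samples were at 79.7, 83.2, 72.2 and 86.6 CPM untreated and 165, 145, 149 and 151 CPM treated and did not overlap. In spiny mouse Fzd6 was at 93.7, 90.4, 96.4 and 86.8 CPM untreated and 89.4, 79.2, 87.03 and 71.1 CPM treated and did overlap. The log2 fold change was 0.92 (SE 0.098, edgeR adjusted p 7.78e-05) in mouse and -0.17 (SE 0.079, edgeR adjusted p 0.0944) in spiny mouse, and the species differed by -1.09 (SE 0.12, edgeR adjusted p 5.34e-06). Fzd10, a receptor for canonical ligands, was at 72.2, 42.9, 59.4 and 78.6 CPM untreated and 99.8, 97.1, 90.8 and 101 CPM treated in mouse, with untreated replicate 2 the lowest. The 8 spiny mouse samples held 64.4, 64.97, 52.4 and 49.1 CPM untreated and 47.9, 49.8, 40.5 and 40.5 CPM treated, where treated replicate 2 exceeded untreated replicate 4. The changes in Fzd10 were 0.62 (SE 0.17, edgeR adjusted p 0.0116) and -0.37 (SE 0.12, edgeR adjusted p 0.0228), with the species apart by -0.99 (SE 0.22, edgeR adjusted p 0.00164), and the spiny mouse call was lost without untreated replicate 1 or 2 or without treated replicate 3 or 4.

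Fzd4 and Fzd9 fell in both species. Fzd4, the receptor for norrin in blood vessels as well as for Wnts, was at 159, 184, 130.0 and 146 CPM untreated and 73.03, 85.4, 76.7 and 83.5 CPM treated in mouse. The spiny mouse levels were 79.7, 84.2, 77.6 and 91.2 CPM untreated and 46.1, 50.8, 49.1 and 45.9 CPM treated. No groups overlapped, and the log2 fold changes were -0.96 (SE 0.13, edgeR adjusted p 0.00023) and -0.79 (SE 0.069, edgeR adjusted p 3.63e-05). Fzd9, a receptor found in muscle and nerve among other tissues, was at 5.58, 5.61, 4.87 and 5.06 CPM untreated and 1.10, 0.923, 2.15 and 3.01 CPM treated in mouse. The spiny mouse values were 8.03, 9.995, 11.7 and 10.4 CPM untreated and 4.28, 4.82, 4.58 and 4.20 CPM treated. Its groups were apart in both, with -1.54 (SE 0.35, edgeR adjusted p 0.0042) and -1.16 (SE 0.13, edgeR adjusted p 0.000118). Neither species difference was called, at 0.17 (SE 0.14, edgeR adjusted p 0.346) and 0.37 (SE 0.36, edgeR adjusted p 0.422), and some markers of vessels and nerve were lower in the same samples. In mouse 5 of 8 endothelial and 4 of 6 Schwann cell genes were lower, and in spiny mouse 3 of 8 and 4 of 6, with 1 endothelial gene higher. The endothelial genes summed to 237 to 271 CPM untreated and 159 to 205 CPM treated in mouse, and to 308 to 391 and 314 to 374 CPM in spiny mouse, where the groups overlapped. Their part in the fall of Fzd4 and Fzd9, like that of the muscle genes, was not tested.

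Fzd7, a receptor of epithelial stem cells in several tissues, was at 123, 128, 100.3 and 130.4 CPM untreated and 139.7, 135, 131 and 134 CPM treated in mouse, where the groups were apart by a narrow margin but the change of 0.16 (SE 0.11, edgeR adjusted p 0.22) was not called. Its spiny mouse levels were 141, 138, 128 and 133 CPM untreated and 98.9, 85.8, 116 and 107 CPM treated, and it fell, with a log2 change of -0.41 (SE 0.089, edgeR adjusted p 0.0041). The difference was -0.57 (SE 0.14, edgeR adjusted p 0.00346). The remaining receptors, Fzd3 and Fzd8, ranged from 26.4 to 51.3 and from 12.98 to 22.4 CPM in mouse and rose there by 0.54 (SE 0.15, edgeR adjusted p 0.0126) and 0.43 (SE 0.12, edgeR adjusted p 0.0103). In spiny mouse they had -0.28 (SE 0.17, edgeR adjusted p 0.205) and -0.54 (SE 0.073, edgeR adjusted p 0.000323). The mouse calls of Fzd3 and Fzd8 were lost under upper-quartile factors and library size alone. Fzd10os, opposite Fzd10 in mouse, ranged from 6.88 to 11.5 CPM and was not called (0.36, SE 0.14, edgeR adjusted p 0.051).

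The co-receptors Lrp5 and Lrp6, which pair with Frizzled to carry the canonical signal, rose in mouse and fell in spiny mouse by small amounts. Lrp5 was at 118, 123, 96.8 and 129 CPM untreated and 171, 148, 151 and 155 CPM treated in mouse. Spiny mouse skin held 151, 149, 161 and 157 CPM untreated and 128, 123, 120.4 and 118 CPM treated. Its groups did not overlap in either, with log2 fold changes of 0.42 (SE 0.12, edgeR adjusted p 0.0116) and -0.34 (SE 0.054, edgeR adjusted p 0.000784). Lrp6 was at 159.7, 217, 159 and 169 CPM untreated and 251, 253, 238 and 225 CPM treated in mouse, with untreated replicate 2 nearest to the treated samples. Spiny mouse groups, at 208, 185, 179.5 and 207 CPM untreated and 162, 167, 162 and 182 CPM treated, overlapped. The changes in Lrp6 were 0.46 (SE 0.13, edgeR adjusted p 0.014) and -0.21 (SE 0.072, edgeR adjusted p 0.0325). The differences between the species were -0.75 (SE 0.12, edgeR adjusted p 0.000161) for Lrp5 and -0.67 (SE 0.14, edgeR adjusted p 0.00152) for Lrp6. The mouse calls of Lrp5 and Lrp6 were both lost under upper-quartile factors and under library size alone. The spiny mouse call of Lrp6 was lost without untreated replicate 1 or 4 or treated replicate 1, 2 or 3.

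**Figure D3:**
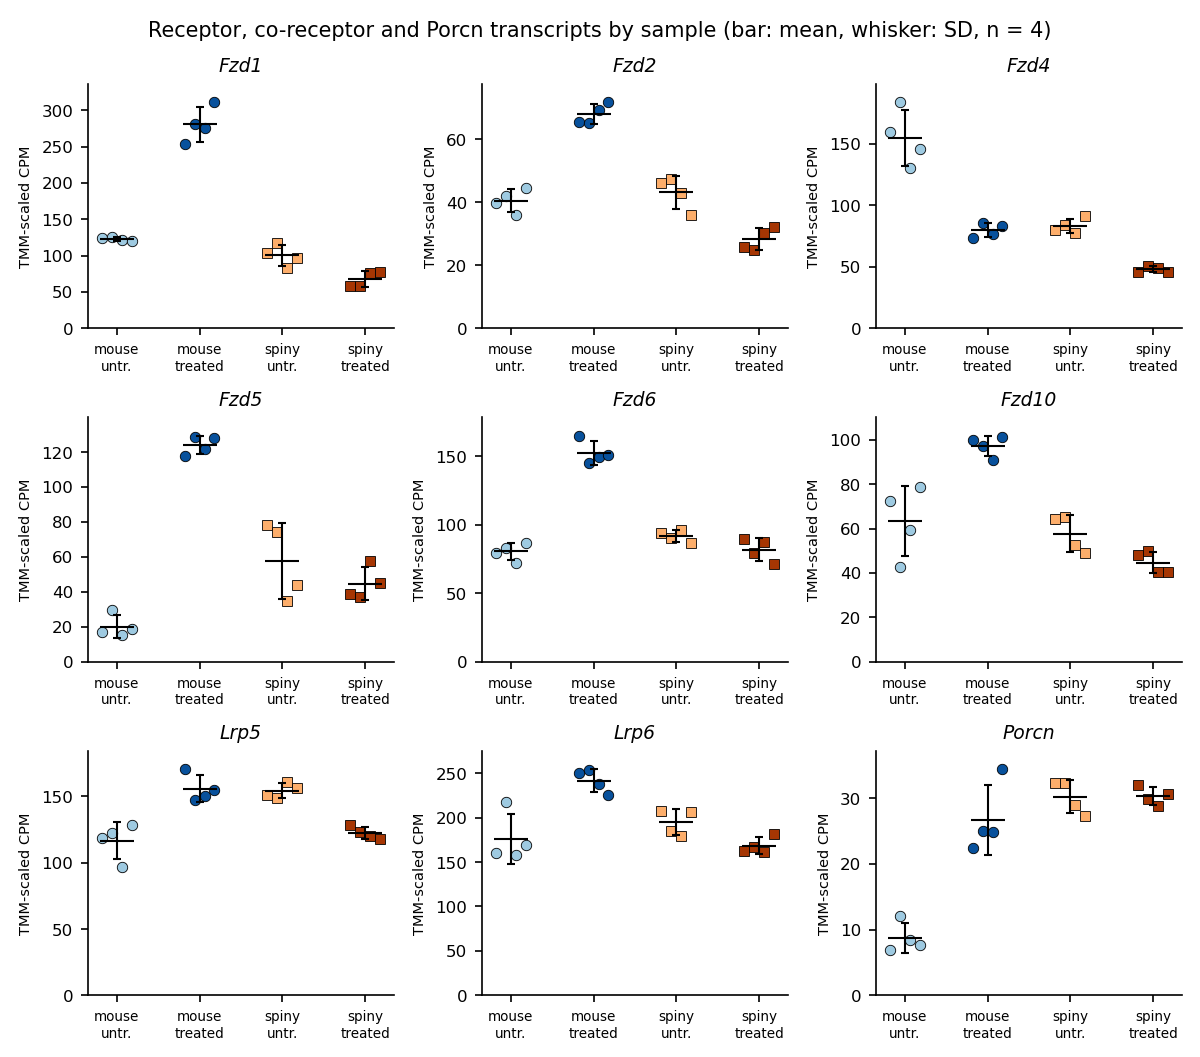
TMM-scaled CPM (y axis, from 0) of 6 Frizzled receptors, Lrp5, Lrp6 and Porcn in each of the 16 samples; short horizontal lines are means and whiskers SD of 4 samples. Treated mouse samples of Fzd5 (118 to 129 CPM) lie far above untreated ones, and Fzd4 is lower after treatment in both species.

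R-spondins bind Lgr receptors and protect Frizzled from degradation. Among the 4, Rspo4, known for its role in nail growth, rose in both species. It was at 1.02, 2.85, 1.28 and 1.55 CPM untreated and 8.93, 11.1, 9.17 and 10.02 CPM treated in mouse. Its levels in spiny mouse were 6.36, 7.38, 7.45 and 7.36 CPM untreated and 10.9, 11.7, 12.2 and 12.6 CPM treated. No groups overlapped. The log2 fold change was 2.55 (SE 0.30, edgeR adjusted p 0.000123) in mouse and 0.73 (SE 0.095, edgeR adjusted p 0.000237) in spiny mouse, and it was the smaller in spiny mouse by -1.83 (SE 0.29, edgeR adjusted p 0.000155). Rspo3, a dermal and vascular R-spondin, fell in both: mouse samples were at 6.51, 5.61, 6.48 and 6.88 CPM untreated and 2.05, 2.11, 2.0 and 1.52 CPM treated. Spiny mouse samples were at 2.42, 4.92, 2.83 and 3.25 CPM untreated and 1.001, 1.75, 1.79 and 1.55 CPM treated. Its groups did not overlap, and the changes were -1.73 (SE 0.18, edgeR adjusted p 5.86e-05) and -1.12 (SE 0.27, edgeR adjusted p 0.00654), and the species differed by 0.61 (SE 0.32, edgeR adjusted p 0.127).

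Rspo2 and Rspo1 behaved unlike each other. Rspo2, linked to hair growth and coat type in dogs, was at 0.749, 0.555, 0.681 and 0.686 CPM untreated and 0.0455, 0.107, 0.146 and 0.229 CPM treated in spiny mouse, with no overlap but with 1 to 5 counts per treated sample. In mouse it was at 0.814, 1.23, 1.25 and 0.319 CPM untreated and 1.05, 1.63, 1.31 and 0.928 CPM treated with overlap. It fell, with a log2 change of -2.31 (SE 0.36, edgeR adjusted p 0.000672) in spiny mouse, against 0.44 (SE 0.41, edgeR adjusted p 0.37) in mouse, and the difference was -2.74 (SE 0.58, edgeR adjusted p 0.00125). Rspo1, expressed in skin and gonad, was at 4.40, 3.95, 5.42 and 7.65 CPM untreated and 3.20, 3.87, 4.26 and 3.34 CPM treated in mouse. Spiny mouse samples were at 4.76, 3.65, 6.09 and 6.08 CPM untreated and 5.32, 8.08, 6.62 and 8.73 CPM treated, and neither species was called, at -0.54 (SE 0.23, edgeR adjusted p 0.0672) and 0.48 (SE 0.21, edgeR adjusted p 0.0742). The difference itself was called, at 1.02 (SE 0.32, edgeR adjusted p 0.0154).

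Dickkopf proteins bind Lrp5 and Lrp6, and Dkk3 is a relative that does not act on them in the same way. Dkk2, which keeps Wnt activity low in hairless skin, was at 8.35, 7.63, 8.39 and 8.56 CPM untreated and 4.62, 6.37, 6.80 and 6.94 CPM treated in mouse, with no overlap. In spiny mouse it was at 27.2, 15.6, 24.5 and 22.1 CPM untreated and 8.42, 11.9, 14.6 and 15.2 CPM treated, also with no overlap. It fell, with a log2 change of -0.41 (SE 0.16, edgeR adjusted p 0.0462) in mouse and -0.83 (SE 0.21, edgeR adjusted p 0.00877) in spiny mouse. The mouse call was lost when any 1 of the 8 mouse replicates was left out and with DESeq2 size factors. Dkk3 was at 34.7, 35.9, 42.8 and 37.2 CPM untreated and 48.1, 53.4, 42.4 and 56.4 CPM treated in mouse and overlapped by 1 sample. The 8 spiny mouse samples held 40.1, 36.4, 40.9 and 33.6 CPM untreated and 42.2, 39.5, 37.4 and 57.3 CPM treated. Its log2 fold changes were 0.41 (SE 0.12, edgeR adjusted p 0.0122) and 0.22 (SE 0.14, edgeR adjusted p 0.189). The mouse call of Dkk3 was lost under upper-quartile factors and library size alone. The differences between the species were -0.43 (SE 0.27, edgeR adjusted p 0.212) for Dkk2 and -0.19 (SE 0.18, edgeR adjusted p 0.424) for Dkk3.

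Dkk4, a target of Wnt signalling in developing hair placodes, was tested in spiny mouse only. There it was at 1.26, 1.31, 2.89 and 1.51 CPM untreated and 0.864, 0.858, 0.512 and 0.640 CPM treated and fell, with a log2 change of -1.28 (SE 0.33, edgeR adjusted p 0.00922), without overlap and with untreated replicate 3 above the rest. Mouse samples were at 0 to 0.307 CPM. Dkk1, the best known antagonist of the family, was at 0 in 7 of the 8 mouse samples and at most 0.229 CPM in spiny mouse.

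Secreted Frizzled-related proteins bind Wnt ligands outside the cell. Sfrp1 rose in both species and was the most abundant of the 4 per length in each (82.5 TPM in mouse and 133 TPM in spiny mouse over all samples). It was at 69.7, 88.2, 66.1 and 69.01 CPM untreated and 197, 167, 184 and 191 CPM treated in mouse. The spiny mouse levels were 190.3, 152, 148 and 141 CPM untreated and 318, 300.2, 284 and 349 CPM treated. No groups overlapped. Sfrp1 changed by 1.33 (SE 0.12, edgeR adjusted p 3.49e-05) in mouse and 0.99 (SE 0.11, edgeR adjusted p 0.000101) in spiny mouse, and the difference of -0.35 (SE 0.16, edgeR adjusted p 0.0918) was not called.

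The other 3 were lower where called. Sfrp4, made by dermal fibroblasts and adipose tissue among others, was at 50.8, 8.68, 38.8 and 29.8 CPM untreated and 4.46, 5.54, 10.1 and 7.02 CPM treated in mouse, where untreated replicate 2 lay within the treated range. Spiny mouse skin held 91.5, 113, 56.6 and 114 CPM untreated and 39.6, 79.4, 37.0 and 33.6 CPM treated, and the groups overlapped through untreated replicate 3 and treated replicate 2. It fell, with a log2 change of -2.23 (SE 0.48, edgeR adjusted p 0.00326) and -0.98 (SE 0.31, edgeR adjusted p 0.0226). Sfrp5, an adipose-tissue antagonist, was at 30.1, 11.01, 18.7 and 16.8 CPM untreated and 4.04, 4.09, 7.17 and 8.73 CPM treated in mouse. The spiny mouse values were 10.1, 17.4, 7.93 and 15.1 CPM untreated and 4.55, 6.57, 7.14 and 6.58 CPM treated. The groups were apart in both species, and the changes were -1.67 (SE 0.35, edgeR adjusted p 0.00295) and -1.02 (SE 0.25, edgeR adjusted p 0.00747). Sfrp2, a fibroblast product, was at 32.5, 9.96, 22.9 and 10.7 CPM untreated and 10.8, 10.3, 8.91 and 14.5 CPM treated in mouse. In spiny mouse it was at 15.8, 27.2, 13.4 and 25.3 CPM untreated and 6.19, 14.01, 11.6 and 10.7 CPM treated. Both sets of groups overlapped, and its values were -0.78 (SE 0.37, edgeR adjusted p 0.0941) in mouse and -0.94 (SE 0.29, edgeR adjusted p 0.0204) in spiny mouse. None of the 4 Sfrp genes differed between the species by the test, where Sfrp4 had 1.25 (SE 0.60, edgeR adjusted p 0.0991), Sfrp5 0.65 (SE 0.46, edgeR adjusted p 0.26) and Sfrp2 -0.16 (SE 0.50, edgeR adjusted p 0.814). Fibroblast genes were lower for 2 of 10 in mouse (35.3% of all genes were) and 4 of 10 in spiny mouse (26.9%), where 1 was higher. Their sum was 10310 to 16696 CPM untreated and 7757 to 11480 CPM treated in mouse, and 5114 to 8530 and 2955 to 4182 CPM in spiny mouse. Adipocyte markers were lower for 6 of 10 in each species: the 10 genes summed to 669 to 2676 CPM in untreated and 606 to 1121 CPM in treated mouse skin, and to 2429 to 2693 and 1056 to 1554 CPM in spiny mouse. The part of either cell type in the Sfrp results was not tested. The spiny mouse calls of Sfrp4 and Sfrp2 were lost without several of the replicates (untreated 2 or 4, and for Sfrp4 also treated 1, 3 or 4).

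Wif1, Frzb and Notum complete the antagonists. Wif1, which binds Wnts directly, was at 5.01, 9.999, 6.01 and 4.37 CPM untreated and 16.9, 20.4, 19.6 and 18.9 CPM treated in mouse, with no overlap and untreated replicate 2 the highest of its group. Its levels in spiny mouse were 10.3, 12.3, 9.50 and 10.4 CPM untreated and 7.14, 9.54, 10.5 and 12.9 CPM treated, with overlap. The values were 1.58 (SE 0.24, edgeR adjusted p 0.000545) and -0.085 (SE 0.17, edgeR adjusted p 0.691), with the species apart by -1.66 (SE 0.31, edgeR adjusted p 0.000438). Frzb, a relative of the Sfrp genes, was at 2.32, 2.50, 2.31 and 1.87 CPM untreated and 1.05, 1.45, 1.53 and 1.30 CPM treated in mouse. Spiny mouse samples were at 6.94, 4.68, 7.80 and 6.49 CPM untreated and 1.55, 1.97, 2.64 and 2.15 CPM treated. Its groups were apart in both species, and it fell, with a log2 change of -0.75 (SE 0.22, edgeR adjusted p 0.015) and -1.64 (SE 0.21, edgeR adjusted p 0.000225), more in spiny mouse (-0.89, SE 0.28, edgeR adjusted p 0.0179). The mouse call of Frzb was lost without untreated replicate 3 or treated replicate 2, and the difference was lost under upper-quartile factors and library size alone.

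Notum, an enzyme that removes the lipid from Wnts, was at 1.18, 2.68, 0.953 and 1.59 CPM untreated and 3.52, 2.55, 3.09 and 3.30 CPM treated in mouse, where untreated replicate 2 lay within the treated range. The spiny mouse groups, at 2.38, 5.39, 3.61 and 3.20 CPM untreated and 0.819, 0.679, 1.65 and 1.01 CPM treated, did not overlap. It rose by 0.96 (SE 0.32, edgeR adjusted p 0.0268) in mouse and fell, with a log2 change of -1.80 (SE 0.34, edgeR adjusted p 0.00168) in spiny mouse, and the species differed by -2.77 (SE 0.48, edgeR adjusted p 0.000256). The mouse call was lost without untreated replicate 1, 3 or 4 or treated replicate 1 or 4. It was also lost under upper-quartile factors and library size alone. In the mouse annotation 29.4% of its exon bases lie opposite Notumos.

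**Figure D4:**
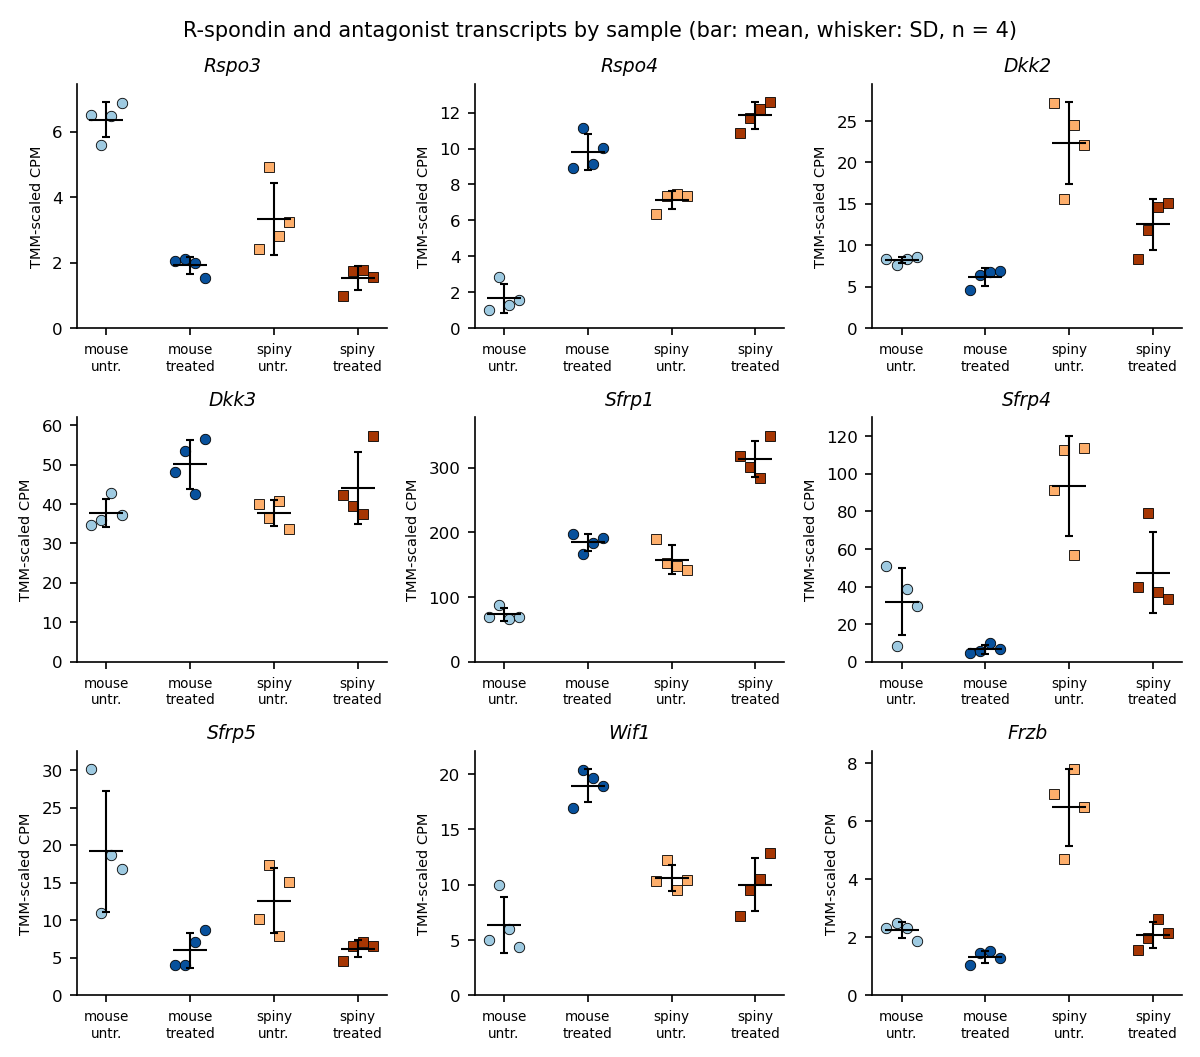
TMM-scaled CPM (y axis, from 0) of 2 R-spondins and 7 antagonists in each of the 16 samples; short horizontal lines are means and whiskers SD of 4 samples. Rspo4 and Sfrp1 are higher after treatment in both species, and Rspo3, Sfrp5 and Frzb are lower in both.

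Axin2, Nkd1 and Nkd2 are inhibitors inside the cell that canonical signalling itself induces, and Axin2 is the usual reporter gene of the pathway. Axin2 was at 63.2, 67.1, 48.6 and 71.5 CPM untreated and 56.6, 55.5, 51.2 and 51.6 CPM treated in mouse and overlapped. The 8 spiny mouse samples held 77.3, 79.2, 80.1 and 74.9 CPM untreated and 37.5, 44.1, 44.2 and 34.3 CPM treated, with the groups well apart. It had a log2 change of -0.22 (SE 0.12, edgeR adjusted p 0.145) in mouse and fell, with a log2 change of -0.96 (SE 0.090, edgeR adjusted p 4.8e-05) in spiny mouse, with the species apart by -0.74 (SE 0.15, edgeR adjusted p 0.00118). All 4 untreated spiny mouse samples lay within 74.9 to 80.1 CPM for Axin2, and their hair shaft scores ran from 5.11 to 9.02. The cause of its fall was not tested.

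Nkd1 and Nkd2 moved otherwise. Nkd1 was at 6.76, 10.04, 6.04 and 7.11 CPM untreated and 19.2, 17.5, 17.6 and 15.7 CPM treated in mouse, with no overlap. The spiny mouse levels were 34.6, 28.6, 14.1 and 20.8 CPM untreated and 6.37, 8.004, 13.9 and 9.69 CPM treated, where untreated replicate 3 and treated replicate 3 came close but did not overlap. It changed by 1.22 (SE 0.17, edgeR adjusted p 0.000305) and -1.37 (SE 0.31, edgeR adjusted p 0.00459), with the species apart by -2.59 (SE 0.37, edgeR adjusted p 5.66e-05). Nkd2 was at 21.4, 28.4, 19.2 and 22.6 CPM untreated and 94.6, 98.9, 95.4 and 109 CPM treated in mouse, again apart. Its spiny mouse samples were at 29.6, 32.5, 16.03 and 19.5 CPM untreated and 9.14, 11.2, 18.7 and 14.5 CPM treated, and treated replicate 3 exceeded untreated replicate 3. Nkd2 changed by 2.12 (SE 0.13, edgeR adjusted p 6.35e-06) and -0.87 (SE 0.27, edgeR adjusted p 0.0232), with the species apart by -2.99 (SE 0.32, edgeR adjusted p 4.75e-06). The spiny mouse call of Nkd2 was lost without untreated replicate 1 or 2 or treated replicate 1 or 2. Of the 3 inhibitors, Nkd1 and Nkd2 thus rose in mouse while Axin2 was not called, and all 3 fell in spiny mouse.

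Lef1 and Tcf7 are the DNA-binding partners of beta-catenin, and Lef1 marks the hair matrix, precortex and papilla. Lef1 (mouse chromosome 3, 130904120 to 131018005, plus strand, GRCm39) had the largest difference of all the Wnt genes. In mouse it was at 1.71, 29.3, 2.05 and 2.32 CPM untreated and 44.7, 41.9, 42.2 and 34.6 CPM treated, with untreated replicate 2 far above the other 3 untreated samples and just below the treated ones. Spiny mouse skin held 74.9, 88.9, 8.85 and 35.1 CPM untreated and 3.09, 3.32, 16.7 and 7.95 CPM treated, where untreated replicate 3 lay below treated replicate 3. The log2 fold change was 2.21 (SE 0.85, edgeR adjusted p 0.0468) in mouse and -2.73 (SE 0.75, edgeR adjusted p 0.0122) in spiny mouse, and the difference was -4.95 (SE 1.22, edgeR adjusted p 0.00397). Without untreated replicate 2 the mouse value was 4.42 (SE 0.14, edgeR adjusted p 5.55e-10), and when any 1 of the other 7 mouse replicates was left out it was not called, at 1.89 to 2.32. The mouse value was also not called under upper-quartile factors (1.92) or library size alone (1.90). Tcf7, a T-cell as well as epithelial factor, was at 10.5, 15.7, 9.71 and 12.1 CPM untreated and 47.5, 38.8, 38.8 and 36.2 CPM treated in mouse, with no overlap. In spiny mouse it was at 39.8, 31.5, 22.7 and 28.8 CPM untreated and 28.3, 27.8, 36.96 and 30.5 CPM treated, with overlap. Its values were 1.75 (SE 0.17, edgeR adjusted p 4.1e-05) and 0.009 (SE 0.17, edgeR adjusted p 0.965), with the species apart by -1.74 (SE 0.24, edgeR adjusted p 4.4e-05). Of the leukocyte genes 4 of 7 were lower in mouse, the T-cell genes Cd3e and Cd3g among them, and 4 of 8 higher in spiny mouse, Cd3g among them, with a positive species difference for 6 of 7. Their summed level was 262 to 474 CPM untreated and 231 to 282 CPM treated in mouse, and 312 to 377 and 487 to 658 CPM in spiny mouse. Their part in the Tcf7 values was not tested.

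Whether these genes followed the hair shaft score was asked within the treatment groups of spiny mouse, where the score varied in both. Treated samples had on the whole lower scores, so hair growth and treatment cannot be fully told apart there. The fit held treatment and the score together, and a value is the log2 change per unit of the score. Of 49 genes tested 6 were called (12.24%), all upward, where 1.91% of all 14833 genes were called and 1.86% upward. Lef1 had the steepest slope of the 6, at 0.64 (SE 0.070, edgeR adjusted p 0.000773). It was followed by Nkd1 (0.24, SE 0.040, edgeR adjusted p 0.0146), Nkd2 (0.21, SE 0.033, edgeR adjusted p 0.00747), Fzd5 (0.20, SE 0.036, edgeR adjusted p 0.0174), Wnt11 (0.16, SE 0.033, edgeR adjusted p 0.05; under the threshold before rounding) and Fzd1 (0.10, SE 0.020, edgeR adjusted p 0.0339). Exons of Lef1os1 lie opposite 13.7% of the exon bases of mouse Lef1, and those of Gm8398 opposite 8.8% of mouse Wnt11. In spiny mouse Lef1 ranked the samples almost as the score did: untreated replicates 1 and 2 were highest in both, and treated replicates 1 and 2 lowest.

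These slopes rest on 8 samples. Without untreated replicate 3, Lef1 alone was called, and without treated replicate 3 the calls numbered 3. The call of Wnt11 was lost under every other scaling and with the inner root sheath score in place of the hair shaft score, and in 6 of 8 fits that left out 1 replicate (all but treated 1 and treated 4). That of Fzd1 was lost under library size alone and in 7 of 8 such fits (all but untreated 1), and that of Fzd5 also without untreated replicate 2. The DESeq2 test called 10 of the genes, 1 of them downward. Other genes that fell with treatment in spiny mouse had slopes that were not called, among them Axin2 (-0.005, SE 0.026, edgeR adjusted p 0.972), Wnt3 (-0.067, SE 0.026, edgeR adjusted p 0.345), Wnt7b (-0.036, SE 0.024, edgeR adjusted p 0.682) and Fzd4 (-0.002, SE 0.021, edgeR adjusted p 0.99). With the score in the fit, 29 of the 39 treatment calls in spiny mouse were kept, Lef1, Nkd1, Wnt3, Wnt7b, Wnt11 and Axin2 among them, and Nkd2, Fzd10, Lrp6, Rspo3, Sfrp2, Sfrp5, Wnt2b, Wnt3a, Wnt5b and Wnt10a were lost. With a score of inner root sheath genes in its place 26 were kept, and Lef1 was among those lost. In the fit with the hair shaft score, 5 of 8 genes of the hair matrix list were called upward. Of dermal papilla genes 1 of 11 was, of bulge genes 0 of 9, and of other genes that Wnt signalling induces 2 of 14. None of 11 tested proliferation genes was. The 2 induced genes were Bmp4 and Dlx3, and Dlx3 is also counted in the hair matrix list.

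**Figure D5:**
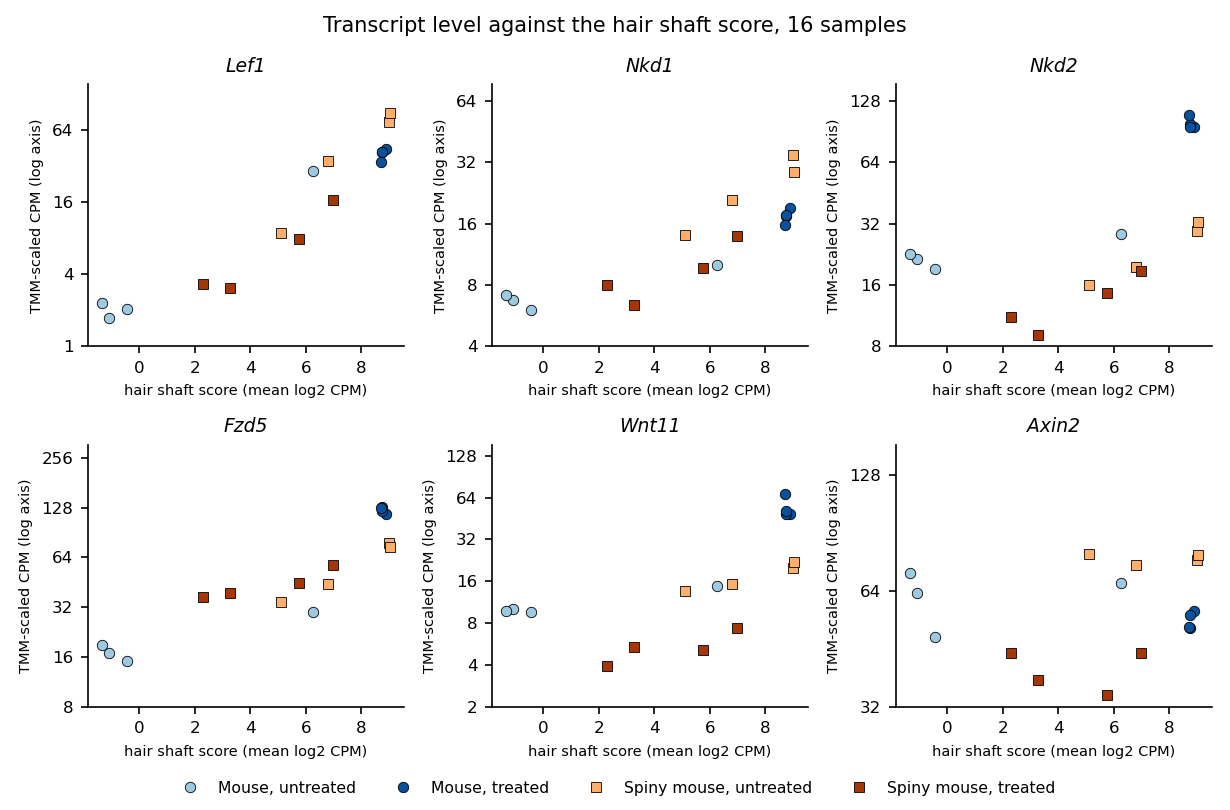
TMM-scaled CPM on a log axis (y) against the hair shaft score (x, mean log2 CPM) in 16 samples, with circles for mouse and squares for spiny mouse. Lef1 and Nkd1 tend to rise with the score inside each spiny mouse group, Wnt11 lies on separate levels for treated and untreated spiny mouse samples, and Axin2 separates the spiny mouse groups without following the score.

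In mouse the score nearly equals the treatment, so values per sample come before any fit with the score. Untreated replicate 2, the only untreated mouse sample with a high hair shaft score, lay outside the other 3 untreated samples on the side of the treated samples for 26 of 48 Wnt genes (54.17%), and for 31.39% of all 19740 genes. It lay outside on the other side for 8 (16.67%), and for 40.25% of all genes. Lef1 had 29.3 CPM in this sample, against 1.71 to 2.32 in the other untreated and 34.6 to 44.7 in the treated samples. Nkd1, Nkd2, Fzd5, Tcf7, Wnt5a, Wnt11, Porcn, Rspo4, Wif1 and Sfrp1 shifted the same way but stayed nearer to the untreated samples: Nkd2 was at 28.4 CPM against 19.2 to 22.6 and 94.6 to 109, and Fzd5 at 29.8 against 15.1 to 18.8 and 118 to 129. On the falling side Wnt7b had 29.3 CPM against 68.1 to 83.1 in the other untreated samples and Sfrp4 8.68 against 29.8 to 50.8, both within the treated range. The same sample held the highest summed muscle level, 76709 CPM, and the lowest adipocyte level of its group, 669 CPM. Without it, 40 Wnt genes were called in mouse, 26 higher and 14 lower. The header of its count column, unlike the others, carried a suffix that no label explains.

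With the hair shaft score as a covariate in mouse, a fit in which the score is estimated mainly from this sample, the treatment value of Lef1 turned to -0.86 (SE 0.22, edgeR adjusted p 0.00609), and those of Notum, Sfrp4 and Wnt7b also changed sign without a call. Of 33 genes 21 still passed in that fit, Lef1 with its sign turned and in their main direction Fzd1, Fzd2, Fzd5, Fzd6, Nkd1, Nkd2, Porcn, Tcf7, Wnt4, Wnt5a, Wnt11, Rspo4 and Sfrp1 among others. For the interaction, the fit took a single slope on the score for the samples of both species together. In that fit 17 of 30 calls were kept, among them Wnt11, Fzd5, Nkd2 and Wnt3. The difference in Lef1 was then 0.10 and not called. It depends on the slope being equal in both species, which was not tested.

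The promoters of these genes were searched for the short words that Lef1 and Tcf factors bind, the 4 that begin with CTTTG and end in AA, AT, TA or TT, on either strand (no matches in these windows overlapped). RefSeq promoter windows (mouse, GRCm38.p6, the 250 bases before each start) were given for 35 of the 55 mouse genes, with 42 windows in all. At least 1 word was found in 5 of 42 windows (11.9%), against 14.8% of 32851 windows of all genes. The 5 belonged to Dkk1, Fzd7, Lef1, Wnt5b and Wnt11. Both windows of Wnt11 and 2 of the 4 of Lef1 are shown, since these 2 genes had the largest differences between the species, with the matched word in capitals.
Wnt11: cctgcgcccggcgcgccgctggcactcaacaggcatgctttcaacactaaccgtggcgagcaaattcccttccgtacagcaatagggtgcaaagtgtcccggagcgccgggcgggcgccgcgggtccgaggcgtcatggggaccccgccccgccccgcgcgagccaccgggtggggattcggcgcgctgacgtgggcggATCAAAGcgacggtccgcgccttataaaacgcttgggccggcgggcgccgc
Wnt11: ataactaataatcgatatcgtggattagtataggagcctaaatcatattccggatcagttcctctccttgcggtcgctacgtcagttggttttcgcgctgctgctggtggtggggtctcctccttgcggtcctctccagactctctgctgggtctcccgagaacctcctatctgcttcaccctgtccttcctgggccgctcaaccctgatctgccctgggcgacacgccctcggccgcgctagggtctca
Lef1: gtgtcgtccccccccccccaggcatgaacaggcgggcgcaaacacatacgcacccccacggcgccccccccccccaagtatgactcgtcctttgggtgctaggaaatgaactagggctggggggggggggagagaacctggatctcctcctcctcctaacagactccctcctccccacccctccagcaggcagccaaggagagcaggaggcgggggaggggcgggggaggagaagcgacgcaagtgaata
Lef1: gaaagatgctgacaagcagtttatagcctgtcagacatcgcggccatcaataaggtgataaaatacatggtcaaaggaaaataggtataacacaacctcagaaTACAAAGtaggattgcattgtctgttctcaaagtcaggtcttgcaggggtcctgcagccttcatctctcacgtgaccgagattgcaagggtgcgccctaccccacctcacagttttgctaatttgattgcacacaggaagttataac
In this order they lie at chr7:98834862-98835111, plus strand, chr7:98838595-98838844, plus strand, chr3:131110047-131110296, plus strand and chr3:131156044-131156293, plus strand. The word in the upstream Wnt11 window begins 51 bases before the start and that in the downstream Lef1 window 147 bases before. No word was found in the windows of Axin2, Nkd1, Nkd2, Fzd1 and Fzd5. A match describes letters in the window and not a bound site.

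Further genes of the pathway were read from lists. Of 19 tested receptors and receptor partners outside the genes above, 11 rose and 3 fell in mouse, and 2 rose and 12 fell in spiny mouse, with medians of 0.48 and -0.38 beside -0.15 and -0.010 for all genes. The largest changes in mouse were those of Lgr6, an R-spondin receptor of follicle and epidermal stem cells (-1.78, SE 0.13, edgeR adjusted p 1.43e-05), Ror2, a Wnt5a receptor (1.76, SE 0.31, edgeR adjusted p 0.00116), and the planar polarity proteins Vangl2 (1.34, SE 0.19, edgeR adjusted p 0.000312) and Celsr2 (1.14, SE 0.25, edgeR adjusted p 0.00352). In spiny mouse these had -0.98 (SE 0.19, edgeR adjusted p 0.00225), -0.51 (SE 0.15, edgeR adjusted p 0.0188), -0.47 (SE 0.10, edgeR adjusted p 0.00358) and -0.21 (SE 0.13, edgeR adjusted p 0.172). Lgr6 thus fell in both species, while Ror2 and Vangl2 rose in mouse and fell in spiny mouse.

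Inside the cell, 10 of 16 genes of the cytoplasmic relay rose in mouse and 2 fell, against 3 and 4 in spiny mouse, with medians of 0.47 and -0.028. Of all genes 25.9% were called higher and 35.3% lower in mouse, and 28.2% and 26.9% in spiny mouse. Ctnnb1, which encodes beta-catenin, rose by 1.18 (SE 0.12, edgeR adjusted p 6.09e-05) in mouse and had 0.030 (SE 0.11, edgeR adjusted p 0.83) in spiny mouse, with the species apart by -1.15 (SE 0.15, edgeR adjusted p 2.4e-05). Of 13 tested nuclear partners, 3 rose and 1 fell in mouse, and 1 rose and 3 fell in spiny mouse, with medians of 0.17 and -0.094. The corepressor Tle3 rose by 1.15 (SE 0.14, edgeR adjusted p 0.000129) in mouse and had -0.094 (SE 0.080, edgeR adjusted p 0.337) in spiny mouse. Among other antagonists, 5 of 8 rose and 1 fell in mouse, and 2 of 9 rose and 4 fell in spiny mouse, with medians of 0.43 and -0.44. Draxin, best known from axon guidance, rose by 2.24 (SE 0.25, edgeR adjusted p 0.000104) in mouse and 0.94 (SE 0.25, edgeR adjusted p 0.0113) in spiny mouse. Sost, the bone antagonist sclerostin, fell, with a log2 change of -2.04 (SE 0.27, edgeR adjusted p 0.00024) in spiny mouse and was not tested in mouse. Both genes were scarce. Draxin was at 0.410 to 0.696 CPM in untreated mouse skin, and Sost at 0.273 to 0.439 CPM in treated spiny mouse skin.

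Genes that Wnt signalling is known to induce, other than the genes of the rule and in part also in the lists above, were higher for 8 of 13 and lower for 1 in mouse, and higher for 3 of 14 and lower for 9 in spiny mouse, with medians of 0.45 and -0.54. The interaction was negative for 10 of 13 and positive for none. Sp5, a direct target of beta-catenin, fell, with a log2 change of -3.73 (SE 0.30, edgeR adjusted p 2.71e-05) in spiny mouse and had -0.51 (SE 0.37, edgeR adjusted p 0.256) in mouse. Dlx3, a hair matrix factor, rose by 3.58 (SE 0.49, edgeR adjusted p 0.000303) in mouse and fell, with a log2 change of -1.60 (SE 0.43, edgeR adjusted p 0.0115) in spiny mouse. Ccnd1, Myc and Cd44, which other growth signals also induce, rose in both species, with Ccnd1 at 0.84 (SE 0.090, edgeR adjusted p 8.16e-05) in mouse and 1.16 (SE 0.14, edgeR adjusted p 0.000167) in spiny mouse.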

How the data were processed

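Skin RNA of 16 samples was read from 2 deposited tables of raw counts per gene. The header code of untreated columns is not explained in the labels. These columns were matched as the remaining code beside that of treated samples, by species letter and number. Per the file headers, the authors counted read pairs with featureCounts 2.0.3 against GRCm39 with Ensembl 108 for mouse and AcoCah2 for spiny mouse, with no strand option and without reads that mapped to several places or genes. HISAT2 and Trim Galore are named in the submitters' processing notes without versions. Untreated and treated samples were compared within each species with edgeR 4.0.16 (R 4.3.3: filterByExpr, TMM factors, quasi-likelihood test), and p-values were adjusted by Benjamini-Hochberg over all genes tested. The species difference was the species by treatment term over genes shared by symbol, and the hair shaft score was added as a covariate within spiny mouse. The test was tried on simulated counts. CPM compare samples of a gene, and TPM compare genes within a species.

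The Wnt genes and gene lists were chosen with earlier results of these data known. Every gene of the rule may be named. Values per sample are given for genes called in at least 1 comparison that were among the 5 most abundant of their role or had a log2 change of at least 1, and genes of other lists were named by the size of their change. Alternatives were other scaling factors, DESeq2 1.42.0, other filters, a replicate block, hair scores as covariates and leaving out each replicate. Same-numbered samples of the 2 groups correlated in their deviations by -0.00799 to 0.0229 in mouse and by -0.526 to -0.195 in spiny mouse, so the numbers were not taken as pairs. No batch or date is given in the labels.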

Additional observations from a re-analysis of the deposited data

Results flagged for a closer look

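In 8 of 176 groups of 4 samples (4.545%, where chance gives about 1 in 20) the highest or lowest sample stood far from the other 3, and 3 of the 8 were mouse untreated replicate 2. In that sample Lef1 was at 29.3 CPM, Sfrp1 at 88.2 CPM and Wnt11 at 14.8 CPM, each the highest of its group. Wnt11 was also high in mouse treated replicate 4, at 67.5 CPM. In spiny mouse, Dkk4 was high in untreated replicate 3 (2.89 CPM) and Sfrp4 in treated replicate 2 (79.4 CPM), while Rspo4 was low in untreated replicate 1 (6.36 CPM) and Wnt7b in treated replicate 4 (28.4 CPM).

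For 27 of the genes described sample by sample the treatment effect differed between the species by the interaction test. On the log2 scale, spiny mouse minus mouse, the receptors had -1.76 (Fzd1), -1.36 (Fzd2), -3.00 (Fzd5), -1.09 (Fzd6), -0.57 (Fzd7), -0.99 (Fzd10), -0.75 (Lrp5) and -0.67 (Lrp6). The ligands and their secretion partners had -1.40 (Wnt3), -1.60 (Wnt5a), 3.60 (Wnt7a), -1.82 (Wnt9a), -1.80 (Wnt10b), -3.99 (Wnt11), -1.61 (Porcn) and -0.68 (Wls). R-spondins had 1.02 (Rspo1), -2.74 (Rspo2) and -1.83 (Rspo4). Antagonists had -0.89 (Frzb), -2.77 (Notum) and -1.66 (Wif1). The genes inside the cell had -0.74 (Axin2), -2.59 (Nkd1), -2.99 (Nkd2), -4.95 (Lef1) and -1.74 (Tcf7).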

How the results depend on the processing

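With 4 samples a group, the filters, the DESeq2 test and the scalings left no called Wnt gene reversed. With the hair shaft or inner root sheath score as a covariate, the lower calls in mouse numbered 6 and 5 in place of 11, and the positive species differences 0 and 0 in place of 3, against 5 under library size alone. Under the same covariates, in that order, the mouse log2 values of Lef1 were -0.86 and -0.89, of Notum -0.12 and -0.033, of Sfrp4 0.40 and 0.32, and of Wnt7b 0.47 and 0.49. The species difference was 0.10 and 0.22 for Lef1, -0.29 and -0.39 for Wnt3a, and 0.013 for Fzd3 under the hair shaft score. The cause was not tested. For the hair shaft score in spiny mouse, DESeq2 called 10 Wnt genes, 1 of them lower, and 515 genes in all in place of 283. Leaving out 1 replicate gave 1 to 5 Wnt genes there, 1 without untreated replicate 3 and 3 without treated replicate 3. Higher genes were 36.3% of all calls for the species difference with no filter on low counts, against 46.4%. Wnt genes called in both species in opposite directions numbered 11, but 7 when scaled by library size alone and 7 by upper quartiles, settings chosen for this count after seeing the data. DESeq2 gave no adjusted p for Lef1 in mouse. Depth limits Dkk1, Wnt1, Wnt8a and Wnt8b, which had few or no counts.

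The replicate numbers showed no pairing in these samples. With a replicate block the test called 33 Wnt genes in mouse, 36 in spiny mouse, 29 for the species difference and 5 for the hair shaft score. Not called with the block were Dkk2 in mouse, Lef1, Nkd2 and Wnt5b in spiny mouse, Wnt3a for the species difference and Wnt11 for the score. No sample of either species correlated best with the sample of its own number.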
